A study of Homo sapiens with 8 samples.

Results

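Peaks of N6-methyladenosine (m6A) in non-coding RNA made up 3438 of the 28949 peaks in the 2 deposited lists. The members were the rows of each list whose feature label contained non-coding RNA and no label of an mRNA (5′ UTR, coding, stop codon or 3′ UTR). The rule used the label only, not a measured value. It found 2116 of 15730 peaks in control cells, or 13.5% (exact 95% binomial interval 12.9 to 14%), and 1322 of 13219 peaks in DF2 siRNA cells, or 10% (9.49 to 10.5%). These and all later intervals are exact Clopper-Pearson intervals at 95% and cover counting error only. The members lay in 1674 genes in control and 1036 genes after DF2 siRNA.

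m6A is a methyl group placed on adenosines of RNA during transcription, mainly by the METTL3 and METTL14 enzymes, in the sequence context known as DRACH, of which GGACU is the best-known form. YTHDF2, written DF2 in the labels, is a cytoplasmic protein that binds m6A and brings its target RNA to the deadenylation and decay machinery. Long non-coding RNAs are transcribed, spliced and polyadenylated like mRNAs and carry m6A as well. Some, such as MALAT1 and NEAT1, stay in the nucleus, and others, such as NORAD, act in the cytoplasm.

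The study used U2OS, an established human osteosarcoma cell line, without DF2 knockdown (control) and with DF2 siRNA, and no other treatment or genotype is named. Each condition has 2 input libraries and 2 libraries of RNA immunoprecipitated with an anti-m6A antibody, all from fragmented RNA that the labels call cytoplasmic. The numbers 1 and 2 on the DF2 siRNA libraries may mark 2 siRNAs or 2 replicates of 1 siRNA, and separate cultures are not mentioned. There is 1 peak list per condition, tied to both immunoprecipitates, so no value below has a replicate error, no test between conditions was made, and depth is unknown. A peak list does not give RNA levels, so the knockdown was not checked and more methylation cannot be told apart from more RNA. Of 10 osteosarcoma or mesenchymal markers, 4 had a peak in control and 4 after DF2 siRNA. Of 4 blood markers, 1 and 0 had one, and none of 3 hepatocyte and 3 neuron markers did. The label of cytoplasmic RNA stands beside peaks in MALAT1 and NEAT1, which are given below.

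Each peak comes with the authors' fold enrichment, a ratio whose reference is not stated, and a score, a whole number whose meaning is not stated. Both are used here only to describe and rank peaks within 1 list. Values of the 2 lists stand side by side for the same gene, and their difference was not tested. Width is the number of exonic nucleotides in a peak, introns left out. A peak was called overlapped where it shared at least 1 exonic base, on the same strand, with any peak of the other list.

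Sequence could be shown only where the RefSeq tables of GRCh38.p14 held it, which was at gene starts and microRNA hairpins. The first 50 bases of the RefSeq gene lay wholly inside a member peak for 81 of 327 genes with a start window in control (24.8%) and 53 of 240 after DF2 siRNA (22.1%). The letters GGACT stood on the transcribed strand in 8 of these 81 starts (9.88%, interval 4.36 to 18.5%) and 7 of the 53 (13.2%, 5.48 to 25.3%). Among all 35116 RefSeq start windows the same 50 bases held GGACT in 4.90%, so the lower bounds lie near the share of all starts. On the other strand GGACT was found in 2 and 1 of the covered starts (2.47% and 1.89%), against 4.91% of all. GGACA stood in 8.64% and 5.66% of the covered starts, against 4.86% of all, and GGACC in 3.70% and 3.77%, against 5.39%. These matches are a description of letters and not of methylated sites. The 6 starts below lay inside a peak in both lists and held GGACT, which is in capitals. They are shown because motif and peak can be read together. They lie at chr22:19048326-19048375 (minus strand), chr4:65669961-65670010 (plus), chr4:152536264-152536313 (plus), chr11:83072066-83072115 (plus), chrX:132218507-132218556 (plus) and chr22:29442080-29442129 (minus), in this order.
DGCR11: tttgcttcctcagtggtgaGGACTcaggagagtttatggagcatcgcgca
EPHA5-AS1: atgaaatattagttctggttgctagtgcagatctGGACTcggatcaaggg
MIR4453HG: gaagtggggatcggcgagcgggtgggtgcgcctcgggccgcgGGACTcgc
RAB30-DT: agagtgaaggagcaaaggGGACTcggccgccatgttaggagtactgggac
RAP2C-AS1: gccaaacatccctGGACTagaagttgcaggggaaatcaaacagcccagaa
RFPL1S: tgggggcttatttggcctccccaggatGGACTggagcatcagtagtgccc

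MIR4453HG is listed by the authors as DKFZP434I0714, and RAB30-DT as RAB30-AS1. The peak over the start of RAP2C-AS1 had a fold enrichment of 55.8 in control and 5.21 after DF2 siRNA, with scores of 83 and 6. That of EPHA5-AS1 had 44.4 and 15.7, and the other 4 had 30.5 to 36.8 in control and 10.1 to 15.8 after DF2 siRNA. All 6 had scores of at most 195, in lists whose median scores were 143 and 74.

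For 3 antisense genes the whole RefSeq window, 250 bases before to 50 bases after the start, lay inside a peak in both lists. NOP14-AS1 (1800 nt, fold enrichment of 36.6 in control and 19.5 after DF2 siRNA) held GGACA and GGACC there but no GGACT, and is not printed. The remaining windows held GGACT and show what sequence a peak of this kind can hold, with GGACT and GGACC in capitals. In both, the capitals lie in the 250 bases before the RefSeq start, so outside the gene as RefSeq gives it. TMEM44-AS1 (chr3:194584018-194584317, plus strand) had a fold enrichment of 67.1 in control and 25.9 after DF2 siRNA over the same 1119 nt. WWTR1-AS1 (chr3:149657960-149658259, plus strand) had 41.2 and 14.9 over the same 1000 nt.
TMEM44-AS1: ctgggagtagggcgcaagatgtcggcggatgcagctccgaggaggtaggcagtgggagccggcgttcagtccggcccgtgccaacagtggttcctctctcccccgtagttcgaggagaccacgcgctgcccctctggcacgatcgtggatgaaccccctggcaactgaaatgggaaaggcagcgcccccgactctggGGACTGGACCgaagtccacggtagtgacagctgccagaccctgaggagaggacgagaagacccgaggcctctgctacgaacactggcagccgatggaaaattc
WWTR1-AS1: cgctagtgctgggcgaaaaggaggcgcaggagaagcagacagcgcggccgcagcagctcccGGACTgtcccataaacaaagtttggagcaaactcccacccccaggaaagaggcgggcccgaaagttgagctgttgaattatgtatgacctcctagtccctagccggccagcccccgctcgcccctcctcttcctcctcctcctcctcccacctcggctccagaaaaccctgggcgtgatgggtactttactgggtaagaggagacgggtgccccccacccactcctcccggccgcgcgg

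Some members were named for a microRNA, 7 in control and 4 after DF2 siRNA, and each of these covered the annotated hairpin from its first to its last base and nothing else. The hairpins of MIR589, MIR4292 and MIR7161 were listed in both conditions, with fold enrichments of 10.4, 18.0 and 11.6 in control and 6.40, 8.18 and 9.54 after DF2 siRNA. MIR3124, MIR4482, MIR4522 and MIR6720 were listed in control only and MIR193A after DF2 siRNA only. An unnamed member of 72 nt in both lists was the hairpin of MIR941-1. Printed here are that hairpin, the hairpin of MIR7161, where none of the 3 motifs was found, and the hairpin of MIR4453, which lay inside the wider peak of its host gene. GGACU and GGACA are in capitals.
MIR941-1: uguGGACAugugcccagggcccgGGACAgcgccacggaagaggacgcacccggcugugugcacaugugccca
MIR7161: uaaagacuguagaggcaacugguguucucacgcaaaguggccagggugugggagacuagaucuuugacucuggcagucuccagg
MIR4453: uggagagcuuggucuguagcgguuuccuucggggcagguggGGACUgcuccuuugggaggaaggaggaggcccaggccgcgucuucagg

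MIR941-1 lies at chr20:63919449-63919520, MIR7161 at chr6:158609707-158609790 and MIR4453 at chr4:152536428-152536516, all on the plus strand. MIR941-1 has near-identical copies. The hairpins of MIR589, MIR4292, MIR7161 and MIR941-1 lie within a protein-coding gene on the same strand. Reads of the longer host transcript and of the hairpin entry cannot be told apart in these lists.

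By gene name, most members had no established symbol. Names made from a sequencing clone, such as RP11-284F21.10, took 1169 control members (55.2%, interval 53.1 to 57.4%) and 685 DF2 siRNA members (51.8%, 49.1 to 54.5%). Antisense names (ending in -AS, with or without a number) followed with 365 (17.2%) and 264 (20%), then pseudogenes with 253 (12.0%) and 143 (10.8%). LINC names, for long intergenic non-coding RNA, took 149 (7.04%) and 97 (7.34%), and other symbols such as MALAT1 took 144 (6.81%) and 111 (8.40%). Host genes of small RNAs had 13 and 10 members, names of divergent, intronic or overlapping transcripts 5 and 2, and 18 and 10 members had no name. For each of the 5 larger classes the intervals of the 2 lists overlapped. Counting each gene once, the clone-based share was 59.2% in control and 56.0% after DF2 siRNA, and the antisense share 14.5% and 16.6%.

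Of the control members, 1117 of 2116 were overlapped by a DF2 siRNA peak (52.8%, interval 50.6 to 54.9%), beside 71.9% of all control peaks. Of the DF2 siRNA members, 1172 of 1322 were overlapped by a control peak (88.7%, 86.8 to 90.3%), beside 87.5% of all DF2 siRNA peaks. For peaks with an mRNA label the shares were 75.8% and 87.7%. The control members thus lay below the background of their list, and the DF2 siRNA members lay near theirs. The partner was itself a member for 1112 of the 1117 control members and 1167 of the 1172 DF2 siRNA members. The control list was also cut to the 13219 peaks of highest fold enrichment, so that both lists were equally long. The members' shares were then 70.0% and 81.5%. The shares of all peaks and of mRNA-labelled peaks given above are those of the uncut lists. They were not taken under this cut, so the equal-length shares have no background beside them. Exactly the same interval was listed in both conditions for 378 members, which is 17.9% of control and 28.6% of DF2 siRNA members, against 31.6% and 36.0% of mRNA-labelled peaks.

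Members ranked low within their lists by score and by fold enrichment. Their median score was 27 in control and 14 after DF2 siRNA, against 198 and 91 for mRNA-labelled peaks, and 86.0% and 89.6% of them scored below the median of the whole list. Their median fold enrichment was 14.1 in control (quartiles 8.27 to 27.2) and 10.1 after DF2 siRNA (6.58 to 17.7), against 22.9 and 19.1 for mRNA-labelled peaks. By the deposited significance, given as −log10, the medians were 5.36 for control members and 5.88 for all control peaks. After DF2 siRNA they were 3.46 and 4.71. In quintiles of the score, numbered from the lowest, quintile 1 held 996 control members (47.1%) and 747 DF2 siRNA members (56.5%), but only 14.4% and 14.7% of mRNA-labelled peaks.

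Within quintiles of the score, control members were below mRNA-labelled peaks in quintile 1 and above them in quintiles 2 to 4. In quintile 1 of the control list 20.8% of members were overlapped (18.3 to 23.4%), against 29.4% of mRNA-labelled peaks (27.3 to 31.5%). In quintile 2 the shares were 70.8% and 62.5%, in quintile 3 94.3% and 79.9%, and in quintile 4 99.2% and 89.9%, each with intervals that did not overlap. In quintile 5, with 47 members, they were 97.9% and 97.1%. In the DF2 siRNA list members were above mRNA-labelled peaks in quintile 1 (82.3% and 73.1%), quintile 2 (95.7% and 82.2%) and quintile 3 (99.3% and 86.8%). Quintile 4 had 98.4% and 92.5%, and quintile 5 96.3% and 98.1%, both with overlapping intervals. When mRNA-labelled peaks were weighted to the members' mix of quintiles, their overlap was 51.7% in control, beside 52.8% for the members, and 78.3% after DF2 siRNA, beside 88.7%. Weighted by quintiles of fold enrichment in place of the score, the control value was 62.9%, by −log10 quintiles 73.6% and by width classes 71.6%, nearer to the 75.8% without weights. After DF2 siRNA these were 78.3%, 83.6% and 85.2%.

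**Figure D1:**
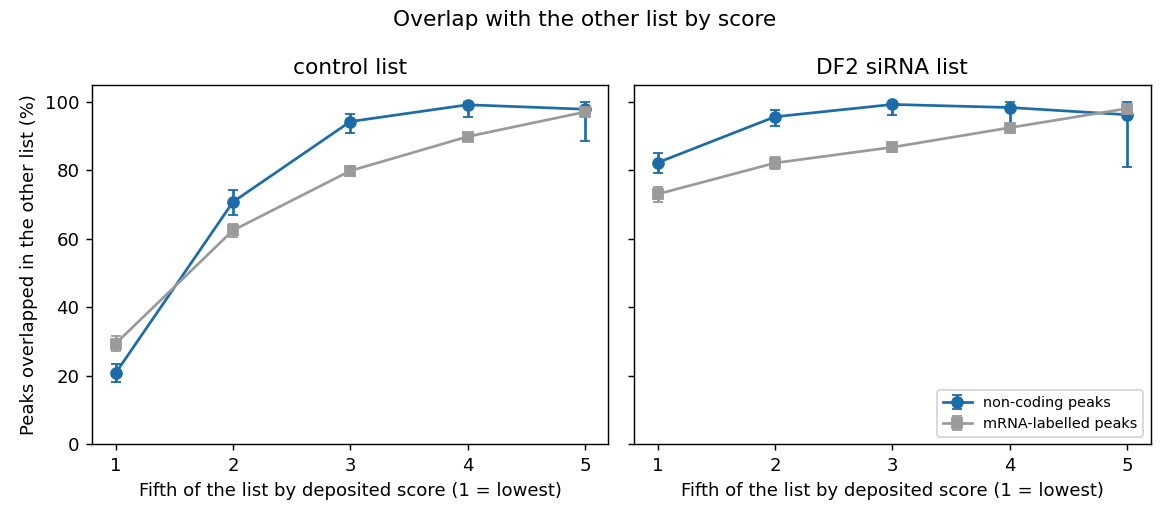
Share of peaks overlapped in the other list (%, y axis) by quintile of the deposited score within each list (x axis, 1 lowest), for non-coding peaks and mRNA-labelled peaks, with exact 95% binomial intervals as bars. Control non-coding peaks go from 20.8% in quintile 1 to 97.9% in quintile 5, and cross the mRNA-labelled peaks between quintiles 1 and 2.

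A single member in quintile 5 of each list had no partner, and both are known RNAs (named after their values were seen). In control it was the second peak of MALAT1, an abundant nuclear RNA of speckles, at chr11:65498962-65499761, with a fold enrichment of 20.6 with a score of 3467. After DF2 siRNA it was the peak named RNaseP_nuc, at chr14:20343208-20343407, with a fold enrichment of 16.7 with a score of 1919. It lies inside RefSeq RPPH1, the RNA of nuclear RNase P, which trims transfer RNA precursors, and covers 200 of its 341 bases. Its −log10 value was 1.42, close to the minimum of 1.31 among DF2 siRNA members.

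Width differed little between the lists. The median member was 600 nt wide in both, with quartiles of 400 and 800 nt, and the range was 53 to 3800 nt in control and 58 to 4000 nt after DF2 siRNA. The median mRNA-labelled peak was 600 nt wide too, with quartiles of 400 and 1000 nt. Of the members, 70.5% in control and 79.3% after DF2 siRNA were a multiple of 200 nt wide, which is the bin size the lists show. Peaks over 800 nt made up 23.6% of control members, against 31.7% of mRNA-labelled peaks, and 20.7% against 28.0% after DF2 siRNA. Blocks on both sides of an intron were found in 39.1% of control members and 33.3% of DF2 siRNA members, against 48.3% and 43.5% of mRNA-labelled peaks.

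Overlap went with width. Of control members of at most 200 nt, 23.5% were overlapped, of those over 200 and up to 400 nt 31.0%, of those up to 800 nt 61.8%, and of wider ones 82.4%. The mRNA-labelled peaks in the same classes had 40.4%, 56.3%, 80.9% and 94.8%. DF2 siRNA members had 71.4%, 82.9%, 94.0% and 99.6%, beside 56.4%, 79.1%, 93.9% and 98.9% for mRNA-labelled peaks. The median score of control members was 10, 15, 35 and 77 in the same width classes, so width and score were not separated.

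**Figure D2:**
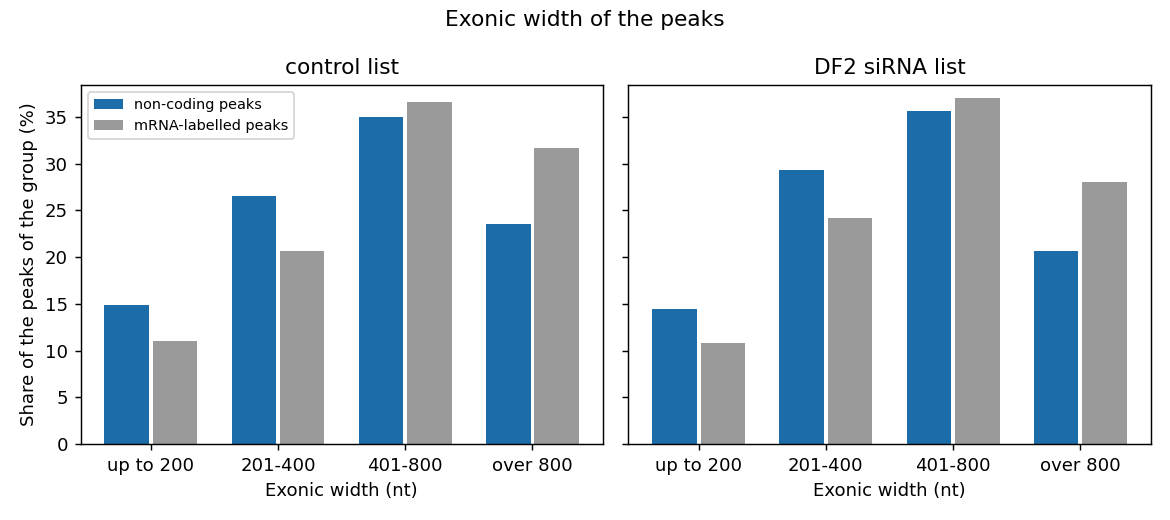
Share of the peaks of each group (%, y axis) in 4 classes of exonic width (nt, x axis), for non-coding and mRNA-labelled peaks of each list. The class over 800 nt holds 23.6% of control non-coding peaks and 31.7% of control mRNA-labelled peaks.

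Among the name classes of the control list, overlap was 61.9% for antisense peaks (56.7 to 66.9%), 63.9% for other symbols (55.5 to 71.7%), 54.4% for LINC peaks (46.0 to 62.5%), 49.7% for clone-based names (46.8 to 52.6%) and 47.4% for pseudogenes (41.1 to 53.8%). The intervals of antisense peaks and other symbols lay above those of clone-based names and pseudogenes. The median scores ran in the same direction, with 36 and 40 for the first pair and 24 and 23 for the second. After DF2 siRNA the shares were 92.4%, 84.7%, 91.8%, 87.2% and 90.9% in the same order, with overlapping intervals. Each class had a lower share in control than after DF2 siRNA, as had all peaks.

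**Figure D3:**
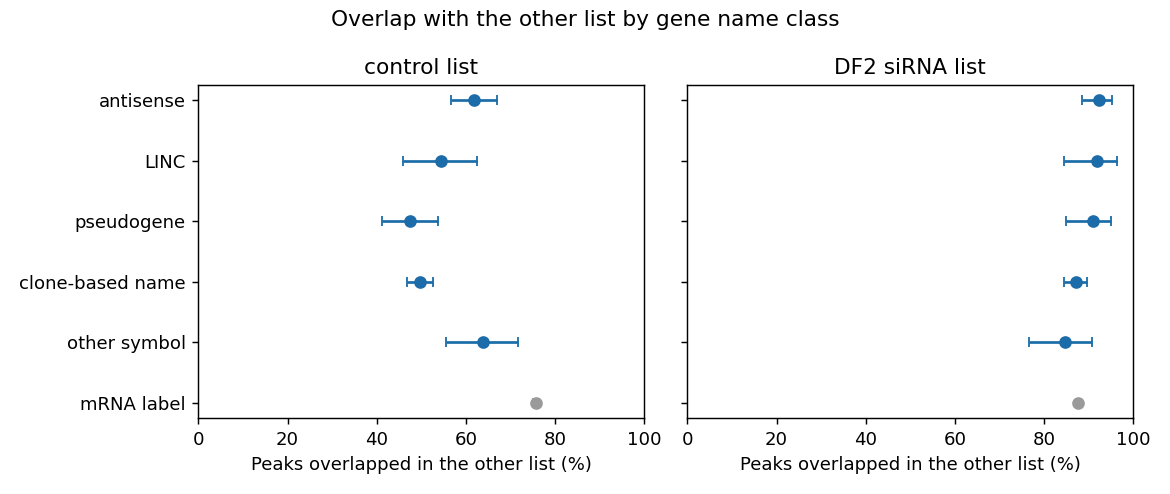
Share of non-coding peaks overlapped in the other list (%, x axis) for 5 gene name classes, with mRNA-labelled peaks of the same list in grey and exact 95% binomial intervals as bars. Antisense peaks reach 61.9% in control and 92.4% after DF2 siRNA, and mRNA-labelled peaks 75.8% and 87.7%.

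Counted by gene, 939 had a non-coding peak in both lists, which is 56.1% of the control genes and 90.6% of the DF2 siRNA genes. In control, 720 genes (43.0%) had no peak of any label in the DF2 siRNA list, beside 20.3% of all genes with a control peak. After DF2 siRNA 93 genes (8.98%) had none in the control list, beside 7.08% of all genes with a peak there. With both lists equally long these counts were 345 and 166, and in the upper 50% of each list by fold enrichment 382 and 21. The share over all genes was not counted under these cuts, so these counts have no background beside them. The genes found in control only had a median best score of 13, against 62.5 for shared genes, and those found after DF2 siRNA only had 7, against 18. Of the 999 control members without a partner, 193 lay in a gene with another peak in the DF2 siRNA list. Of the 150 DF2 siRNA members without one, 55 lay in such a gene. Antisense genes of the control list were shared in 69.8% of cases, LINC genes in 65.6%, clone-based names in 52.0% and pseudogenes in 51.0%.

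Antisense RNAs are transcribed from the strand opposite to another gene, often from near its promoter. The class here rests on the name only. No RefSeq protein-coding gene lay over 48.8% of control and 47% of DF2 siRNA peaks with an antisense name. VIM-AS1, antisense to the vimentin gene, had the highest fold enrichment of all control members, 202, in a spliced peak of 1200 nt at chr10:17214831-17229785 with a score of 358. The identical interval had a fold enrichment of 17.0 with a score of 26 after DF2 siRNA. COX10-AS1 (COX10-DT in RefSeq) had 198 over 1600 nt in control and 23.6 over 800 nt after DF2 siRNA. ASH1L-AS1, opposite to a histone methyltransferase gene, had 187 over 1000 nt and 58.5 over 800 nt. WAC-AS1 led the antisense peaks after DF2 siRNA with 144, over 600 nt, beside 104 over 2000 nt in control. CIRBP-AS1 had 124 in control and 113 after DF2 siRNA over 1 identical interval of 994 nt, and ENTPD1-AS1 had 140 and 94.5 over 1 of 800 nt. FGD5-AS1 had the highest antisense score in both lists, 5024 and 1316. MCM3AP-AS1 and GAS6-AS1 had the widest antisense peaks, 3400 nt in control (1600 nt after DF2 siRNA) and 3200 nt after DF2 siRNA (3169 nt in control).

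Among LINC RNAs, LINC00657, known as NORAD, binds PUMILIO proteins in the cytoplasm. Its peak at chr20:36049761-36050960 was identical in both lists, with a fold enrichment of 86.8 with a score of 3962 in control, and 118 and 3160 after DF2 siRNA. LINC00473, a cAMP-responsive RNA, had 1 identical interval of 2176 nt with 112 and 95.8, and scores of 3647 and 1526. LINC01128, LINC00667 and LINC01547 led the control list with 123, 121 and 116, beside 74.0, 78.1 and 79.9 after DF2 siRNA. LINC00963 had 7 peaks in control and 5 after DF2 siRNA, and each of the 5 overlapped a control peak. Its strongest had 57.3 in control and 64.9 after DF2 siRNA, and its 2 peaks found in control only had 9.73 and 4.83. No RefSeq protein-coding gene lay over 84.6% of control and 84.5% of DF2 siRNA LINC peaks, against 55.1% and 54.8% of all members.

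Clone-based names, more than 50% of the members in each list, held the peak with the highest fold enrichment after DF2 siRNA. This was RP11-284F21.10, with 214 and a score of 1345 at chr1:156641688-156643087, beside 176 and 3988 at the identical interval in control. RP5-1198O20.4 had 157 in control and 163 after DF2 siRNA, over 2600 and 2800 nt, and 4 and 2 peaks in all. RP11-212P7.2 had 152 in control and 15.6 after DF2 siRNA, over 1000 and 800 nt. AC005329.7 had 43.4 and 122. The widest members of both lists belonged to RP11-559N14.5, with 3800 nt in control and 4000 nt after DF2 siRNA, and RP13-554M15.7 had 3600 and 3000 nt. Of the clone-based members, 3 in each list could be matched to a RefSeq symbol, so nothing is said here of what these RNAs are.

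Pseudogenes are copies of genes that have lost the coding function, and many arose from spliced mRNA. Of the pseudogene peaks, 171 of 253 in control (67.6%) and 110 of 143 after DF2 siRNA (76.9%) lay in 1 stretch without an intron. Blocks on both sides of an intron were found in 32.4% and 23.1% of pseudogene peaks. Clone-based members were near this, with 35.4% and 29.5%, and all members had 39.1% and 33.3%. Where the name gives the parent gene, the parent had an mRNA-labelled peak in the same list for 89 of 179 control cases (49.7%) and 39 of 91 after DF2 siRNA (42.9%). Counting each parent once, the shares were 46.5% and 39.7%, beside 36.8% and 33.6% of all 20056 RefSeq protein-coding symbols, which were not matched for expression. Reads of a parent and its copy can be hard to tell apart, and no source used here says how reads that fit both were assigned, so these peaks are uncertain. Overlap with the other list was 47.2% for the 89 control peaks whose parent had a peak and 42.2% for the 90 whose parent had none. After DF2 siRNA the shares were 92.3% and 90.4%, and neither difference was tested.

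RNF216P1 had a fold enrichment of 122 in control and 146 after DF2 siRNA over 1 identical interval of 1200 nt. FAHD2CP had 134 and 61.9, CLUHP3 125 and 34.7, and ZNRF2P1 49.0 and 62.5. MTATP6P1, a nuclear copy of a mitochondrial gene, had the highest scores among pseudogenes, 6953 and 1419, with fold enrichments of 30.6 and 12.4. Pseudogenes of ribosomal proteins had 18 peaks in control and 6 after DF2 siRNA. Their fold enrichment was 4.48 to 31.0 and 4.63 to 8.18, and 6 of the 18 and 6 of the 6 were overlapped.

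Among other symbols, the highest fold enrichment in control, 190, belonged to a gene with a clone-like name on chromosome 22. KANTR, a chromosome X RNA, had 121 and 83.1 over 1757 and 957 nt, and HEIH had 109 and 37.4. TTLL11-IT1, named as an intronic transcript, had 109 with a score of 411 in control and 34.0 with 53 after DF2 siRNA. CRHR1-IT1 had 14 and 9.87 in peaks that did not overlap, and SMIM2-IT1 6.44 in control only. Peaks without a name reached 41.2 in control and 17.6 after DF2 siRNA. RefSeq types the genes matched to 33 control and 22 DF2 siRNA members as protein-coding, although the lists label the peaks non-coding. KANTR, TUG1, HM13 and TTLL11-IT1, whose name RefSeq gives as an older one of TTLL11, are among them.

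Well-known RNAs were looked up in 6 lists chosen for their roles, counting each RNA once per list. Among all genes with a non-coding peak, 43.0% in control and 8.98% after DF2 siRNA had no peak in the other list. Whether an RNA without a peak was expressed is unknown. Of 25 nuclear long non-coding RNAs, 8 had a non-coding peak in both lists, 2 in control only, and 15 in neither. Of 18 listed as cytoplasmic, LINC-PINT among them, 5 were found in both lists, 2 in control only, 1 after DF2 siRNA only, 1 under another label, and 9 in neither. The place in the cell is that of the chosen lists and was not measured here. Of 27 microRNA host genes, 5 were found in both, 3 in control only, 2 under another label and 17 in neither. Of 35 snoRNA host genes, 4 were found in both, 1 after DF2 siRNA only and 30 in neither. Of 12 p53-induced RNAs, 3 had a peak in both and 9 had none, and those 3, NEAT1, LINC-PINT and PVT1, stand in the nuclear or the cytoplasmic list as well. None of 11 entries for RNase P, MRP, telomerase, 7SK, 7SL and vault RNAs was found by symbol. The lists name some such RNAs by family, as for RNaseP_nuc, so a missing symbol does not show a missing peak.

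MALAT1 had the highest score of all members in control, 22404, at chr11:65499962-65500961 with a fold enrichment of 82.2, and its DF2 siRNA peak had 36.9 and 2936 over 600 nt. NEAT1, the scaffold of paraspeckles, had 32.4 with a score of 4175 in control and 12.1 with 203 after DF2 siRNA. TUG1 had 79.9 and 61.3 at 1 identical interval of 1200 nt. Its 2993-nt control peak at chr22:30976403-30979395 was overlapped by 3 separate DF2 siRNA peaks of 1000, 400 and 200 nt. HOTAIR, an RNA of the HOXC locus, had a peak in control only, with 21.3 and a score of 204. JPX, an activator of XIST in mice, had 60.1 and 10.3, and its neighbour FTX had 14.6 and 26.8. FIRRE, an X-linked nuclear RNA, had 17.9 and 15.4, and DLEU2 had 5.83 in control only. PVT1 had 37.1 and 37.9, and CCAT1 91.2 and 34.7.

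The values are those of each RNA's strongest peak, which for OIP5-AS1 and MIR4435-2HG lay at another place in each list. OIP5-AS1, the human cyrano, had a fold enrichment of 22.8 with a score of 655 in control, and 11.7 and 74 after DF2 siRNA. CYTOR (LINC00152) had 23.0 and 18.9, LINC00511 38.6 and 15.2, and LINC-PINT 49.6 and 21.4. UCA1 and CASC15 had peaks in control only, with 8.96 and 4.48, and CRNDE after DF2 siRNA only, with 6.92. Among host genes, SNHG16 had 31.0 and a score of 1717 in control, and 19.8 and 734 after DF2 siRNA. SNHG7 had 12.1 and 7.81 and SNHG29 (LRRC75A-AS1) 9.45 and 6.92, and SNHG15 was found after DF2 siRNA only, with 8.11. MIR210HG, the host of the hypoxia-induced miR-210, had 77.0 and 28.3, MIR22HG 35.6 and 19.6, MIR762HG 26.1 and 11.6, and MIR4458HG 14.8 and 9.84. MIR4435-2HG had 4 peaks in control and 3 after DF2 siRNA, with 19.8 for a control peak that was not overlapped and 5.76 for a DF2 siRNA peak elsewhere in the gene. MIR99AHG, MIR181A1HG and MIR181A2HG were found in control only, with 14.1, 10.9 and 7.92. The RNAs found in 1 list only had fold enrichments of at most 21.3.

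**Figure D4:**
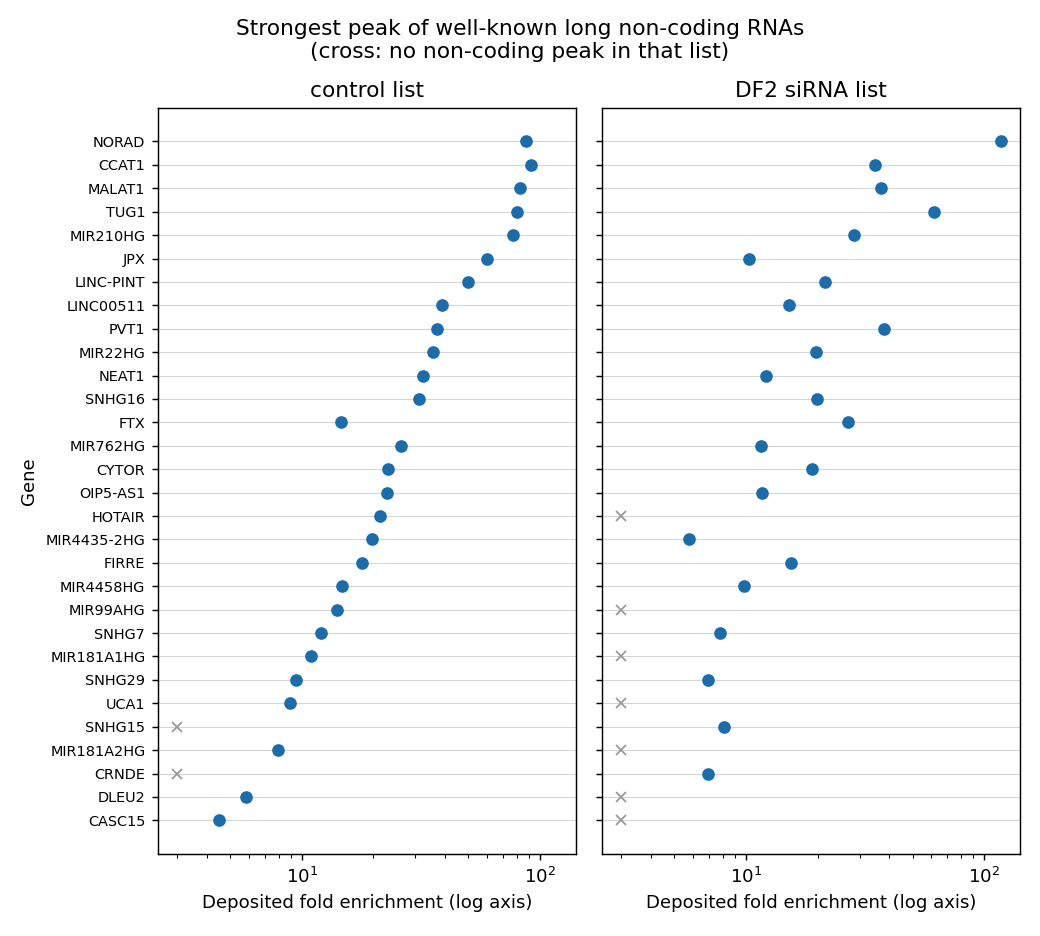
Deposited fold enrichment (log axis) of the strongest non-coding peak of each listed RNA that had one, with the control list on the left and the DF2 siRNA list on the right, and crosses for no non-coding peak in that list. The RNAs marked by a cross on either side lie at or below 21.3, the value of HOTAIR.

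Parts of some long RNAs were listed under a family name, in addition to peaks of the full gene. TUG1_2, of 87 nt, had a fold enrichment of 70.7 with a score of 749 in control and 34.4 and 144 after DF2 siRNA. TTC28-AS1_2, of 157 nt, had 62.3 and 11.0, and HOXA11-AS1_6, of 179 nt, had 24.1 and 20.4. In all, 115 control members (5.43%) and 62 DF2 siRNA members (4.69%) shared bases on 1 strand with a member of another gene entry. Counting such groups once left the overlap at 52.4% and 88.4%.

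Few members lay over small structured RNAs. A member named U1 covered the whole 162 nt of a RefSeq small nuclear RNA in both lists, with fold enrichments of 8.12 and 6.29. After DF2 siRNA a member covered the whole 71 nt of SNORD56, with 3.71. The names 7SK, Metazoa_SRP and SNORA51 stood in the control list only, with 5.1, 9.57 and 19.7. U47924.31, of 1000 nt in control and 1097 nt after DF2 siRNA, held the whole of RNU7-1, the U7 RNA of histone mRNA processing, with fold enrichments of 26.5 and 15.7. The control peak of SNHG16 held SNORD1A, and the DF2 siRNA peak of SNHG15 held SNORA9. CH507-513H4.4, on the minus strand of chromosome 21, had 2 control peaks (12.9 and 10.7) and 2 DF2 siRNA peaks (12.3 and 25.7), all within the interval of the 18S ribosomal RNA gene RNA18SN3. The strand of that RNA gene is not in the RefSeq gene table used here, and it has near-identical copies, so the source of these reads is uncertain.

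Many members lay beside protein-coding genes. In control 25.9% of members lay over a protein-coding gene of the opposite strand only and 14.1% over one of the same strand only, and after DF2 siRNA 28.4% and 12.3%. For antisense names the opposite-strand share was 44.9% and 47.3%, and for clone-based names 28.9% and 31.4%. Pseudogenes lay over a gene of the same strand in 28.9% and 25.9%. These shares count RefSeq gene intervals, and the strand was known for 17274 of 20056 protein-coding genes (86.1%). Some neighbours were missed in this way. The DF2 siRNA peak of ST20-AS1 was counted without a protein-coding gene, but shared 184 nt with an ST20-MTHFS peak.

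A member and an mRNA-labelled peak of the opposite strand shared bases in 118 control cases (5.58%, 4.64 to 6.64%) and 82 DF2 siRNA cases (6.20%, 4.96 to 7.64%). Among mRNA-labelled peaks themselves, 1.62% and 1.06% shared bases with one on the opposite strand. The mRNA partner had the higher score in 86 of the 118 and 63 of the 82 cases. Scores of mRNA-labelled peaks were higher in general, with medians of 198 in control and 91 after DF2 siRNA, against 27 and 14 for members. No source used here says whether the libraries keep strand, and without it the reads of such a pair cannot be told apart. PP7080 (SLC9A3-OT1 in RefSeq) had a fold enrichment of 92.2 in control and 79.2 after DF2 siRNA, and shared 839 of its 2200 nt with a 3′ UTR peak of EXOC3 that had 64.6 and 33.5. HOXA10-AS shared 218 nt with the HOXA10 peak in control, with 83.6 for the antisense and 13.5 for the sense peak. AC091878.1 shared 75 nt with BASP1, whose control score was 14991 against 276 for the member. CTB-147N14.6 shared 780 of its 1229 nt with SLC1A5, a glutamine transporter, in both lists. Without such members the overlap with the other list was 52.4% in control and 89.1% after DF2 siRNA.

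Along their genes, members in RefSeq long non-coding RNAs reached the first 200 bases of the gene in 135 of 580 cases in control (23.3%, 19.9 to 26.9%) and 94 of 416 after DF2 siRNA (22.6%, 18.7 to 26.9%). They reached the last 200 bases in 23.6% (20.2 to 27.3%) and 20.7% (16.9 to 24.9%), and neither end in 56.4% and 59.6%. Of mRNA-labelled peaks in protein-coding genes, 14.7% and 16.1% reached the first bases, 13.4% and 12.3% the last, and 72.5% and 72.2% neither. The median genomic length was 11102 and 11662 bp for the genes of the former and 39319 and 36809 bp for those of the latter, and the part of gene length in the shares at the ends was not tested.

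Most genes had 1 member peak, 1343 in control and 831 after DF2 siRNA, and 331 and 205 had more. TTC28-AS1 had 7 and 8 peaks, CTBP1-AS2 6 and 2, HCG18, SCAND2P and RP11-638I8.1 5 and 4, TP73-AS1 4 and 5, and ZNF37BP 2 and 5. The counts depend on how bins were joined. The 2200-nt DF2 siRNA peak of CTBP1-AS2 spanned 2 control peaks of 800 and 1200 nt, with fold enrichments of 114 and 72.8 in control and 55.9 after DF2 siRNA. The 5 DF2 siRNA peaks of ZNF37BP all fell in its 2 control peaks of 2200 and 2600 nt, with 68.0 and 58.6 in control and 8.20 to 14.4 after DF2 siRNA.

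Of the genes with a peak in control only, GNRHR2, which RefSeq lists as a pseudogene of a gonadotropin-releasing hormone receptor, had the highest fold enrichment, 89.6 at chr1:145919613-145920745 with a score of 122. RP11-458D21.1 had 58.4, AC105760.2 57.9, CYP1B1-AS1 57.1, RP11-190A12.8 53.9 and OR2A1-AS1 53.1, with scores of 65 to 119. CYP1B1-AS1 shared 239 nt with a peak of CYP1B1 on the opposite strand. Of the genes with a peak after DF2 siRNA only, RP11-958N24.1 had 17.0, RNaseP_nuc 16.7, RP4-756H11.3 12.9, LLPH-AS1 12.6, RP1-95L4.4 12.3 and RP11-1094M14.11 10.8. Besides RNaseP_nuc these scored 14 to 57.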

How the data were processed

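Alignment used HISAT2 and the hg38 genome, per the submitters' processing notes. No source used here names the peak caller, annotation, filters, strand setting or treatment of reads with several places. Fold enrichment is a ratio given once for each peak in the deposited lists. Significance is given in the deposited lists as −log10, of a p-value for control and of an FDR for DF2 siRNA per the file headers, so the same limit is not equal in both. The score in the deposited lists is a whole number, 3 at the lowest, whose meaning is not stated. Library depth is unknown.

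Coordinates are counted from 1. Among peaks with several blocks, the blocks reached the stated end for 7448 of 7448 plus-strand control peaks but for 3128 of 7046 on the minus strand. With the block sizes of minus-strand peaks read in reverse order they did for all 7046, and for all 5928 in the DF2 siRNA list, so they were read in this way. Names were matched to RefSeq GRCh38.p14 by symbol (730 control and 484 DF2 siRNA members) or by an older name (151 and 110), with the match required to lie near the peak. Some clone-like names such as CH507-513H4.4 fall under other symbols.

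The members and lists were chosen with earlier results of these data known. Named were, per class and list, the 3 genes of highest fold enrichment and the 1 of highest score, the 6 highest genes in 1 list only, the 5 genes with most peaks, the 3 widest peaks, and RNAs of the role lists. RNAs of the role lists beyond the 5 highest, small RNAs, family names, opposite-strand pairs and the sequences shown were chosen after values were seen. Motifs within peaks were not analysed here, for want of a genome, except in start windows and hairpins. The alternatives tried are given in the closing section. Overlap counting was tested on simulated data, where 1778 of 1778 shifted copies placed among 3000 control peaks were found. Scripts ran under Python 3.11.15 with pandas 2.3.3 and, for intervals, scipy 1.17.1.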

Additional observations from a re-analysis of the deposited data

How the results depend on the processing

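No paired analysis was possible because the peaks are given once per condition, and for the same reason no library could be left out. Of 79 alternatives, 37 left the value within its interval or 1.5 times the count and 42 moved it; causes of the moves were not tested, beyond fewer peaks or a stricter match by construction. The overlap of control members (52.8%) was 41.3% in the upper 50% of each list by fold enrichment, 44.4% at a −log10 value of at least 3.3, 70.0% with lists of equal length, 44.8% with 50% of both widths shared, 55.1% without strand and 28.3% for peaks of at most 400 nt. That of DF2 siRNA members (88.7%) was 90.7% at −log10 of at least 3.3, 81.5% with equal lengths, 71.9% with 50% shared and 79.1% up to 400 nt. The members' share of the control list was 9.21% in the upper 50%, 11.0% with equal lengths, 16.4% up to 400 nt and 15.5% with every non-coding label. Their share of the DF2 siRNA list was 5.02% in the upper 50%, 8.30% at −log10 of at least 3.3, 12.0% up to 400 nt and 11.8% with every non-coding label. Genes in control only (720) were 382 in the upper 50% and 345 with equal lengths. Genes after DF2 siRNA only (93) were 21, 45 at the −log10 limit and 166 with equal lengths. The overlap of all peaks and the counts over all genes were not taken under these cuts. Counting each gene once, control shares were 5.73% LINC, 14.5% antisense and 59.2% clone-based, and DF2 siRNA shares 16.6% antisense and 56.0% clone-based. In the upper 50%, control shares were 19.9% antisense and 10.1% pseudogene, and DF2 siRNA shares 9.34% LINC, 23.8% antisense and 45.5% clone-based. Median widths were 800 nt in the upper 50% of both lists, and with introns counted 800 and 732 nt. Weighting mRNA-labelled peaks by −log10 or width in place of score gave 73.6% and 71.6% in control and 83.6% and 85.2% after DF2 siRNA. Block sizes in the deposited order left each overlap and width within those limits. Alternatives by score mix, width, block order, clone-like names, opposite strand and shared bases were chosen after seeing the data. Depth is unknown, so what it limits could not be measured.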
